A study of Mus musculus with 6 samples.

Results

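The 10 immediate early genes described here are Fos, Fosb, Jun, Junb, Jund, Egr1, Atf3, Ier2, Dusp1 and Btg2, taken by symbol from a list of genes known to respond within minutes to a stimulus or to stress, 10 of the 52636 genes in the count table. They were followed across the 5 cell types that the authors deposited, both genotypes and both batches. Retinas of male C57BL/6J mice aged 12 months were compared by single-cell RNA sequencing, 3 of Dram2 wt/wt and 3 of Dram2 ko/ko animals, the latter carrying a CRISPR deletion of 1 Dram2 exon. Replicate 3 of each genotype makes up batch 1 (2 retinas) and replicates 1 and 2 make up batch 2 (4 retinas). All retinas were digested with papain and triturated into a suspension before droplet capture on the 10x Genomics 3′ kit, so these data hold no undissociated reference. The labels name no stimulus or treatment, and where they do not say that the retinas came from separate animals, p-values measure only the spread between these samples.

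An immediate early gene is transcribed within minutes of a signal from proteins the cell already holds, mostly serum response factor, its Elk partners and CREB, which MAP kinases and other kinases switch on. Fos and Jun proteins pair into AP-1, a transcription factor that reads the signal out, whereas Dusp1 removes phosphate from MAP kinases and so ends it. Enzymatic dissociation of live tissue is itself known to start the programme, microglia and vascular cells being well-known examples.

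The starts of these genes carry short binding letters for CREB and its relative Atf3, and those are shown first because they are what several of the 10 share that their choice did not use. Of the 10, 8 had a RefSeq window on GRCm38.p6 from 250 bases before to 50 bases after the gene start. No window was available for Egr1 and Ier2. The letters TGACG, read on both strands, stood in 6 of these 8 windows (Fos, Fosb, Junb, Atf3, Dusp1 and Btg2), against 20.8% of 32851 windows over all genes. The longer palindrome TGACGTCA, which contains TGACG on both strands, stood in 2 (Dusp1 and Btg2), against 1.79% of all windows. TATAAA was found in 2 (Fos and Junb), against 13.6%. The AP-1 letters TGANTCA stood in 0 of 8, against 7.81%, and the CArG box of serum response factor in 0 of 8, against 1.63%. At shares this low over all genes, 0 of 8 does not show a lack of such sites. Sites outside the window were not searched. These matches describe letters in the window and no factor was measured. Of the 6, the stretches of 5 are printed 5′ to 3′ on the gene's own strand with the matches read on that strand in capitals. They lie on GRCm38.p6 at chr12:85473731-85473858 (plus strand) for Fos, chr7:19310071-19310135 (minus) for Fosb, chr8:84978820-84978884 (minus) for Junb, chr17:26508578-26508693 (minus) for Dusp1 and chr1:134079284-134079351 (minus) for Btg2, each upstream of its RefSeq start with 0 annotated exons of GENCODE M21 inside. The stretch of Dusp1 lies within the GENCODE span of that gene, which begins farther upstream.
Fos: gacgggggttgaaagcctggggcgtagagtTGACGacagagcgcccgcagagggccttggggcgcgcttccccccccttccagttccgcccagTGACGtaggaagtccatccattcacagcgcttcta
Fosb: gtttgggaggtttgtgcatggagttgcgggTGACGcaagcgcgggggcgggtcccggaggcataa
Junb: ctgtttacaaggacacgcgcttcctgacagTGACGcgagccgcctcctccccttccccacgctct
Dusp1: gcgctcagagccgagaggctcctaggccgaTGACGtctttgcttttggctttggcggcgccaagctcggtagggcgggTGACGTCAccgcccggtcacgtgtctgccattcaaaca
Btg2: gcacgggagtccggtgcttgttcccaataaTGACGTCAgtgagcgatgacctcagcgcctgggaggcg
In Fos the first match starts 129 bases and the last 66 bases upstream of the start, in Fosb the match starts 60 and in Junb 106 bases upstream.

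Depth per retina was 3463728 to 6563762 unique molecular identifiers (UMIs, 1 per captured molecule). The deposited types held 45746 cells, of which 42359 were photoreceptors, 2083 interneurons, 942 glia, 246 mesenchymal cells and 116 cells of the retinal pigment epithelium (RPE). A photoreceptor sum of 1 retina held 2892834 to 4675272 UMIs, an interneuron sum 245755 to 1406842, a sum of glia 145343 to 453224 and a mesenchymal sum 77876 to 114066. Mitochondrial genes took 2.75% and 3.22% of UMIs in batch 1 and 0.405% to 0.720% in batch 2. Median UMIs per cell were 550 to 609 in batch 1 and 406 to 444 in batch 2. Cell names in the deposited tables are running numbers, so barcodes shared between libraries could not be counted. Dram2 itself was counted at 109, 140 and 317 UMIs in wt/wt and 95, 149 and 351 UMIs in ko/ko replicates 1 to 3, which checks nothing, since the 3′ end that the kit reads lies outside the deleted exon. The type that the authors call mesenchymal held microglia markers (11 genes summing to 17822 CPM on average, that is UMIs scaled to 1000000 UMIs of the sum), endothelial markers (11624 CPM), Müller glia markers (5710 CPM, 1953 to 12344 by retina, against 58191 CPM in glia and 663 CPM in photoreceptors) and pericyte markers (4405 CPM), while 4 of 6 fibroblast markers were at 0. The pericyte list also summed to 1651 CPM in photoreceptors, above 399 CPM in glia and 248 CPM in interneurons, so it is not particular to pericytes. Its effect on the split of mesenchymal cells below was not tested. The part of the Müller glia signal in the mesenchymal levels was not tested. The name is kept here as a label of the authors.

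Mesenchymal cells held the highest mean level for 9 of the 10 genes, with Egr1 as the exception and Atf3 level with photoreceptors. The 10 together took 5839 ± 895 CPM of mesenchymal cells (SD, n = 6), 981 ± 372 CPM of interneurons, 781 ± 169 CPM of glia and 586 ± 81.3 CPM of photoreceptors. The lowest mesenchymal sum, 4877 CPM, stood above the highest of any other type, 1371 CPM in an interneuron sum. RPE cells gave 0 to 2 UMIs of any of these genes per retina, and 3 counts, the limit that a count of 0 allows, come to 83.4 to 176 CPM in their sums, so absence cannot be read from them. Intervals and limits of this kind cover counting error only. In a droplet library fewer cells with the transcript and less of it per cell give the same sum.

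**Figure D1:**
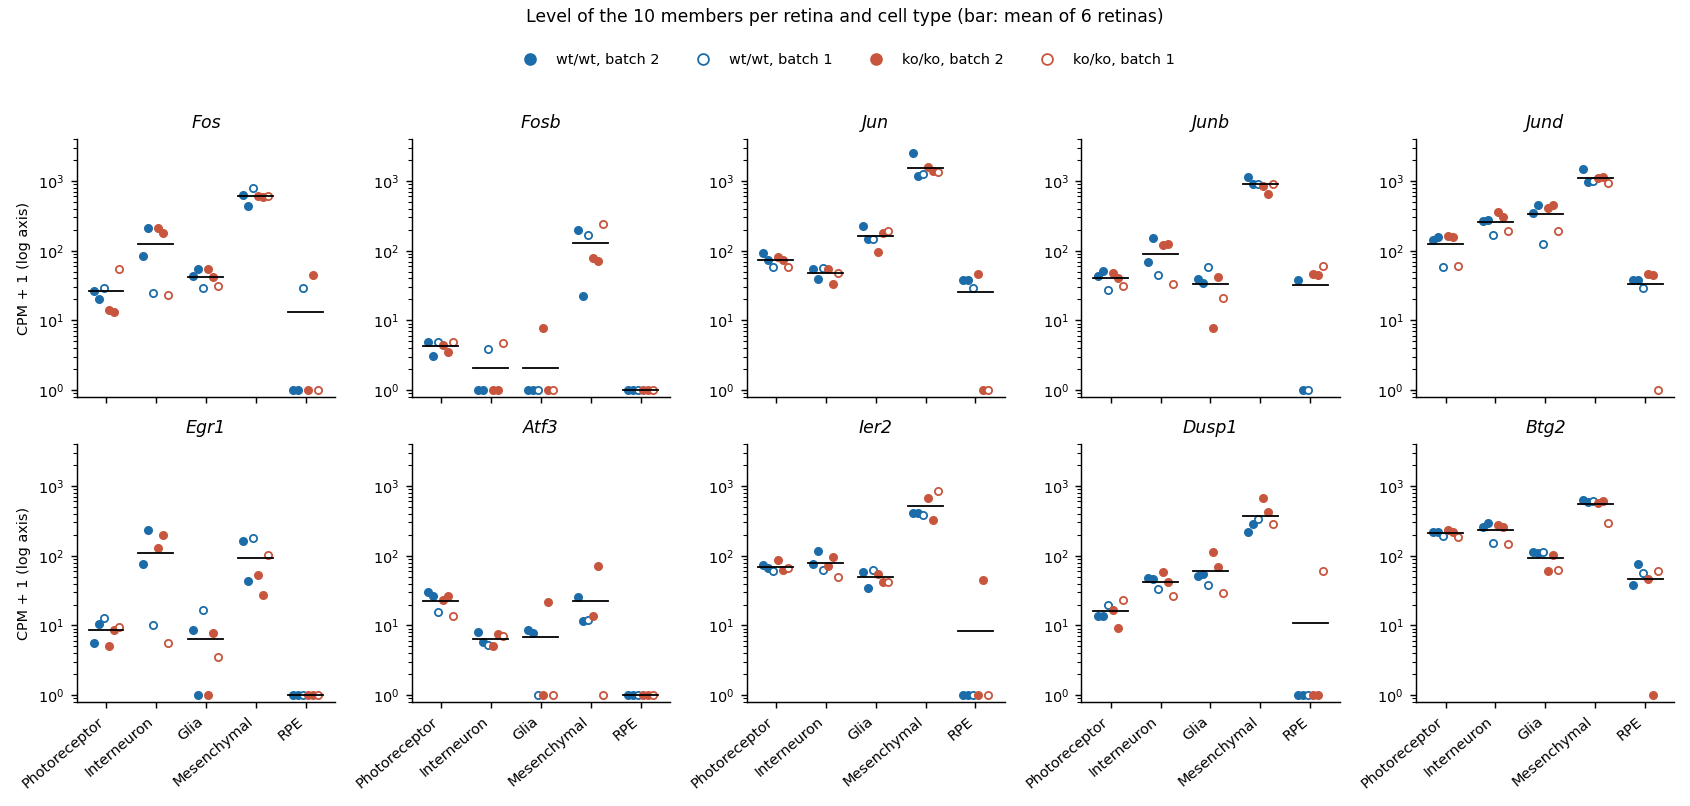
Level of each of the 10 genes in CPM + 1 on a log axis, 1 point per retina and cell type, with a bar at the mean of 6 retinas, blue for wt/wt, red for ko/ko, filled for batch 2 and open for batch 1. Mesenchymal points of Fos lie between 438 and 783 CPM, above all points of the other types, and the open interneuron points of Fos and Egr1 lie below the filled ones.

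The AP-1 subunits of the Fos family came first in order of role. Fos (ENSMUSG00000021250, chromosome 12, 85473890 to 85477273, plus strand) stood in mesenchymal cells at 638, 438 and 783 CPM in wt/wt replicates 1 to 3 and at 602, 587 and 604 CPM in ko/ko replicates 1 to 3. Its level in interneurons was 83.0, 209 and 24.2 CPM in wt/wt and 212, 181 and 22.1 CPM in ko/ko retinas. The third retina of each genotype, that of batch 1, was the low one in both groups. Glia held 42.0, 53.5 and 28.7 CPM (wt/wt) and 53.6, 41.3 and 30.4 CPM (ko/ko). Photoreceptors held 25.3, 19.1 and 28.2 CPM (wt/wt) and 13.1, 12.3 and 54.1 CPM (ko/ko), so that ko/ko replicate 3 was the highest of the 6. Its mesenchymal mean of 609 ± 111 CPM was 24.0 times that of photoreceptors, 25.3 ± 15.5 CPM, and interneurons (122 ± 89.7 CPM) overlapped both glia (41.6 ± 10.8 CPM) and photoreceptors. Fosb (ENSMUSG00000003545, chromosome 7, 19302696 to 19310051, minus strand), a close relative of Fos, took its largest share of the sum in mesenchymal cells, at 196, 21.3 and 165 CPM in wt/wt and 76.8, 70.1 and 244 CPM in ko/ko retinas. Those 6 sums rest on 2 to 19 UMIs each, 66 in all. Photoreceptors, the far larger pool, gave 70 UMIs of it at 2.13 to 3.91 CPM, interneurons 9 UMIs and glia 1 UMI in all.

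Of the partners of the Jun family, Jund was flatter over the types than Fos, while Jun and Junb were not. The mesenchymal mean stood 33.2-fold above the lowest of photoreceptors, interneurons and glia for Jun and 27.2-fold for Junb, against 24.0-fold for Fos and 9.09-fold for Jund. Jun (ENSMUSG00000052684, chromosome 4, 95049034 to 95052222, minus strand) reached 2540, 1195 and 1257 CPM in wt/wt and 1574, 1411 and 1335 CPM in ko/ko mesenchymal cells. Wild-type replicate 1 was the highest of the 6, and each of them stood above every other sum of Jun. Glia held 164 ± 45.2 CPM, 2.27 times the photoreceptor mean of 72.0 ± 12.9 CPM, and interneurons 46.8 ± 9.62 CPM. The 4 types did not overlap, although the lowest glia sum (93.8 CPM) came close to the highest photoreceptor sum (90.3 CPM), and the lowest photoreceptor sum (57.0 CPM) to the highest interneuron sum (56.2 CPM). Junb (ENSMUSG00000052837, chromosome 8, 84974484 to 84978718, minus strand) stood at 893 ± 162 CPM in mesenchymal cells, 89.9 ± 48.4 CPM in interneurons, 39.3 ± 9.31 CPM in photoreceptors and 32.9 ± 17.6 CPM in glia. The last 2 means differed by less than their spread. Jund (ENSMUSG00000071076, chromosome 8, 70698949 to 70700616, plus strand), which is known to be present without a stimulus, showed the flattest profile of the family, with 1114 ± 192 CPM in mesenchymal cells, 331 ± 143 CPM in glia, 259 ± 69.9 CPM in interneurons and 123 ± 49.7 CPM in photoreceptors. Jun overlaps Junos, Junb overlaps Prdx2 and Jund overlaps Gm11175, each on the opposite strand, and reads of such overlaps are uncertain because the strand setting of the counting is not given in the sources used here.

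Egr1 (ENSMUSG00000038418), a zinc finger factor used as a marker of neuronal activity, was the one member with as much signal in interneurons as in mesenchymal cells. Interneurons held 75.9, 236 and 9.24 CPM in wt/wt and 126, 199 and 4.57 CPM in ko/ko retinas. Both values under 10 CPM belong to batch 1. Mesenchymal cells held 160, 42.7 and 176 CPM (wt/wt) and 51.2, 26.3 and 103 CPM (ko/ko), from 3 to 16 UMIs per sum, and the means of 108 ± 96.2 CPM and 93.2 ± 63.6 CPM did not differ beyond their spread. The order turned with the batch, since interneurons were the higher in 3 of the 4 retinas of batch 2 and the lower in both of batch 1. Photoreceptors (7.70 ± 3.00 CPM) and glia (5.42 ± 5.91 CPM) were low throughout.

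Atf3 (ENSMUSG00000026628, chromosome 1, 191170296 to 191218039, minus strand), a stress-response factor that binds the same letters as CREB, did not share the mesenchymal excess of the others over photoreceptors. Photoreceptors held 28.8, 25.2 and 14.5 CPM in wt/wt and 22.1, 25.4 and 12.6 CPM in ko/ko retinas, together 438 UMIs. Mesenchymal cells had the same mean, 21.5 ± 25.1 CPM against 21.4 ± 6.48 CPM, but from 13 UMIs, 0 to 8 per retina. Interneurons had 5.47 ± 1.26 CPM from 23 UMIs and glia 5.83 ± 8.07 CPM from 6 UMIs. Of the 13 mesenchymal UMIs, 8 came from ko/ko replicate 2. The 8 rod markers summed to 79286 CPM in photoreceptors and to 9008 to 10968 CPM in the other types, and the part of rod RNA in these low counts of Atf3 was not tested. Ier2 (ENSMUSG00000053560, chromosome 8, 84661331 to 84662852, minus strand), a nuclear protein of the serum response, had 68.8 ± 10.2 CPM in photoreceptors and 77.6 ± 24.1 CPM in interneurons, a difference within the spread, 48.0 ± 11.1 CPM in glia and 508 ± 207 CPM in mesenchymal cells.

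The members that restrain signalling or growth were Dusp1 and Btg2. Dusp1 (ENSMUSG00000024190, chromosome 17, 26505590 to 26562128, minus strand), the MAP kinase phosphatase, had means of 15.1 ± 4.94 CPM in photoreceptors, 41.5 ± 11.3 CPM in interneurons, 58.6 ± 30.5 CPM in glia and 370 ± 165 CPM in mesenchymal cells. Interneurons and glia did not differ beyond their spread. Its annotated span overlaps Ergic1, Gm8225, AC122252.1 and AC122252.4. Btg2 (ENSMUSG00000020423, chromosome 1, 134075170 to 134079120, minus strand), an antiproliferative factor, had the smallest contrast of all but Atf3, 549 ± 126 CPM in mesenchymal cells against 230 ± 64.4 CPM in interneurons, 210 ± 17.9 CPM in photoreceptors and 92.5 ± 24.9 CPM in glia. In photoreceptors its 6 values ran only from 187 to 232 CPM.

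In 1 edgeR model of the 30 sums (6 retinas, 5 types, retina as blocking factor), 9 of the 10 genes passed the filter on low counts, which asked for 50.6 CPM or more in at least 3 sums. Fosb reached that level in 5 mesenchymal sums and in no other, so it had to differ, and its differences from photoreceptors (log2 4.90 in mesenchymal cells, -1.20 in interneurons and -2.59 in glia, the last on 1 UMI in all glia) are given as a description and left out of the counts. Atf3 reached it in 1 sum and was not tested. The other 8 were called higher in mesenchymal cells than in photoreceptors at an adjusted p under 0.05, where 64.0% of all 8116 genes tested were called and 31.8% were called higher. Their log2 differences were 4.30 ± 0.21 (SE) for Dusp1, 4.28 ± 0.28 for Fos, 4.26 ± 0.16 for Junb, 4.16 ± 0.12 for Jun, 3.15 ± 0.56 for Egr1, 3.03 ± 0.14 for Jund, 2.60 ± 0.15 for Ier2 and 1.13 ± 0.13 for Btg2, beside a median of -0.12 over all genes. In interneurons 7 of these 8 were called against photoreceptors (background 63.0%): Egr1 (2.91), Fos (1.49), Dusp1 (0.97), Jund (0.84) and Junb (0.68) were higher, and Jun (-0.84) and Btg2 (-0.27) were lower. For Fos and Egr1 this direction held in the 4 retinas of batch 2 only. In the 2 of batch 1 interneurons lay below photoreceptors, at 24.2 against 28.2 CPM and 22.1 against 54.1 CPM for Fos, and at 9.24 against 12.0 CPM and 4.57 against 8.56 CPM for Egr1. Dusp1, Jund and Junb were higher in interneurons in 6 of 6 retinas. With library totals in place of the TMM factors, which moved the median of all genes by 0.34, the difference of Btg2 became 0.08. Btg2 was not called either without the retina block (-0.19, edgeR adjusted p = 0.40), without the cells richest in UMIs (-0.08, adjusted p = 0.53) or without either retina of batch 1 (0.069 and 0.105). Glia differed in 5 of 8 (background 66.8%), with Dusp1 (1.48), Jund (1.21) and Jun (1.01) higher and Btg2 (-1.35) and Ier2 (-0.64) lower. The last was not called with library totals (-0.41, edgeR adjusted p = 0.077). Because the types are clusters made from the same counts, these p-values are no independent evidence, and shares of 5 or 7 in 8 are close to the background of a contrast in which most genes differ.

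Within the mesenchymal label the signal was divided again. Cells with more UMIs of the microglia markers than of the endothelial, pericyte and fibroblast markers together (91 cells, called microglia-list here) were set apart from the other 155. Fos stood in the microglia-list cells at 1185, 881 and 1667 CPM (wt/wt) and 2451, 1328 and 3442 CPM (ko/ko), and in the other mesenchymal cells at 74.7, 77.3 and 384 CPM (wt/wt) and 113, 222 and 232 CPM (ko/ko). The former were higher in 6 of 6 retinas, on average 9.92-fold. The value of 3442 CPM rests on 31 UMIs that sit in 2 of 6 cells. Egr1 was 13.1-fold higher (260 against 19.9 CPM), the lower mean resting on 5 UMIs in batch 1 and 3 in batch 2. Junb was 4.18-fold higher (1977 against 473 CPM), Fosb 3.72-fold (278 against 74.8 CPM), Btg2 3.66-fold (1122 against 306 CPM) and Jun 2.504-fold (2736 against 1093 CPM). Each of these, Egr1 included, was higher in 6 of 6 retinas. Jund (1423 against 1005 CPM, higher in 4 of 6) and Dusp1 (530 against 330 CPM, higher in 3 of 6) showed no such order. Ier2 went the other way in the means (412 against 536 CPM, lower in 4 of 6), and all 13 mesenchymal UMIs of Atf3 fell on the other cells. The share of microglia-list cells was 35.1% to 53.8% in wt/wt and 19.4% to 36.0% in ko/ko retinas. Blood markers (4 genes) summed to 7259 CPM of the mesenchymal sum of ko/ko replicate 2 (828 UMIs) and to 0 to 51.2 CPM of the other 5.

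Without the microglia-list cells, a setting chosen after the data were seen, 6 of the 8 were still called higher in mesenchymal cells than in photoreceptors in edgeR. With those cells included, 64.0% of all 8116 genes were called in this contrast and 31.8% called higher, so the count is no evidence by itself. Fos then differed by 2.46 ± 0.42 on the log2 scale in place of 4.28, whereas Ier2 (2.58) and Jund (2.69) were close to their former values. Egr1 (0.89, adjusted p = 0.40) and Btg2 (0.16, adjusted p = 0.47) were not called.

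**Figure D2:**
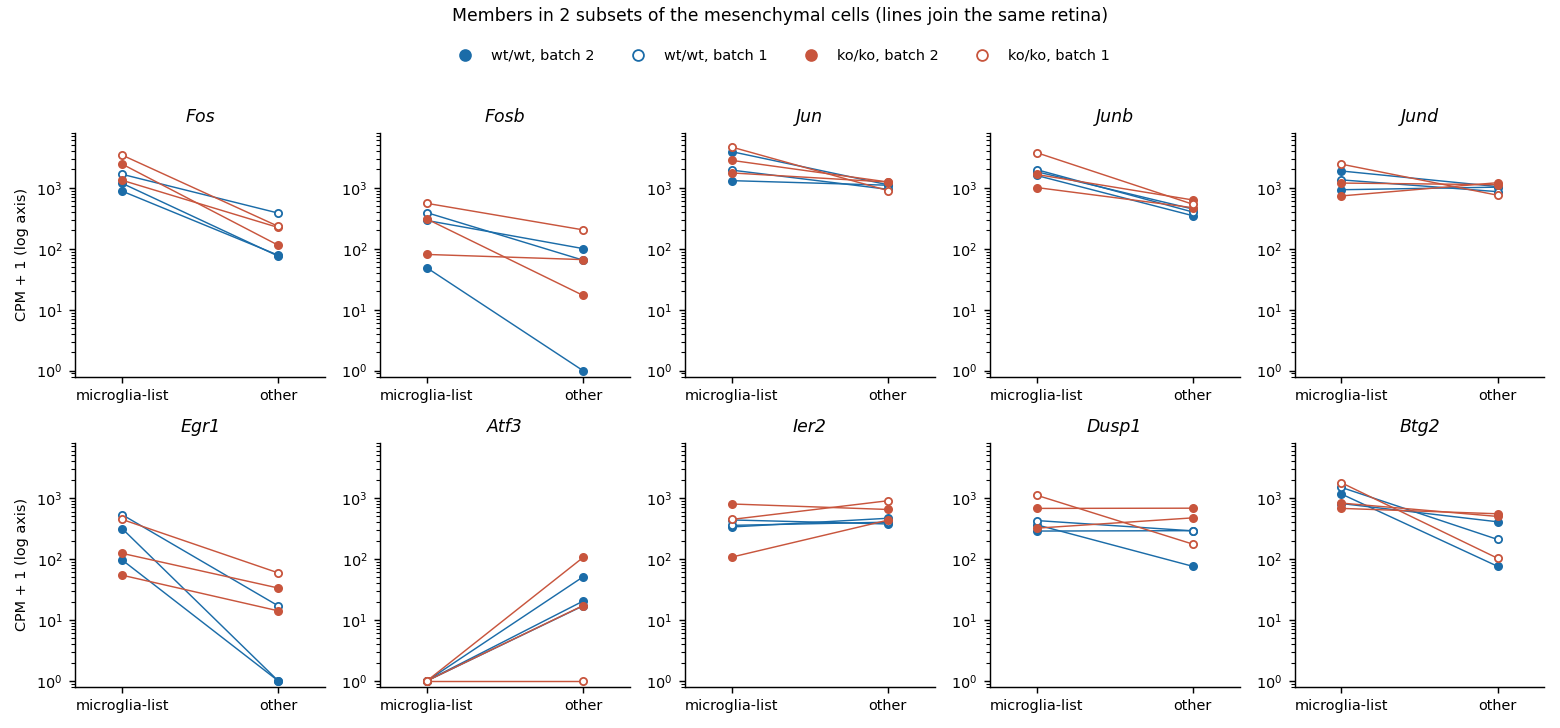
CPM + 1 of each of the 10 genes on a log axis in microglia-list and in other mesenchymal cells, with lines joining the 2 values of 1 retina, colours by genotype and filled points for batch 2. Lines of Fos, Fosb, Jun, Junb, Egr1 and Btg2 fall from left to right in 6 of 6 retinas, those of Jund, Ier2 and Dusp1 cross, and Atf3 is at 0 in all microglia-list points.

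Between batches, Fos, Egr1 and Junb were lower in the interneurons of batch 1. Fos stood at 83.0 to 212 CPM in the 4 retinas of batch 2 and at 22.1 and 24.2 CPM in the 2 of batch 1, with means of 171 and 23.1 CPM, 7.40-fold apart. Egr1 stood at 75.9 to 236 CPM in batch 2 and at 4.57 and 9.24 CPM in batch 1, with means of 159 and 6.91 CPM, 23.0-fold apart. Junb had 68.8 to 151 CPM against 32.8 and 43.4 CPM. The batches did not overlap for any of these 3 in either genotype. The share of all genes without such overlap was not counted, in this or any other cell type. Absence of overlap between batches is therefore a description, here and below. In edgeR, with genotype in the model, the log2 differences (batch 1 minus batch 2) were -2.89 ± 0.31 for Fos (adjusted p = 7.8e-06), -4.54 ± 0.44 for Egr1 (adjusted p = 2.9e-06) and -1.64 ± 0.28 for Junb (adjusted p = 0.00054). All 3 remained called when any single retina was left out, with ranges of -3.17 to -2.57 for Fos and -5.16 to -4.03 for Egr1. Egr1 reached the filter of this fit (22.6 CPM) in the 4 retinas of batch 2 alone, and without a filter it was called as well (-4.40). Of the 10 genes, 8 were tested and 6 called, all 6 lower in batch 1, against a background of 12.5% of 8429 genes called and 7.65% called lower. Egr1 is among the 6 and, having passed the filter through batch 2 alone, adds no support to that count.

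The other 3 calls in interneurons were smaller. Btg2 fell by 0.89 ± 0.18 on the log2 scale (edgeR adjusted p = 0.0024), with 254 to 298 CPM in batch 2 and 146 and 153 CPM in batch 1, and Jund by 0.78 ± 0.18 (adjusted p = 0.0059), with 270.4 to 354 CPM against 168 and 189 CPM. Neither overlapped between batches. Ier2 fell by 0.75 ± 0.23 (adjusted p = 0.039), with 69.2 to 115 CPM against 48.8 and 61.1 CPM. Leaving out wt/wt replicate 3 or ko/ko replicate 3, after which batch 1 is 1 retina assumed to vary like the others, gave adjusted p of 0.092 and 0.115 for Btg2 and of 0.116 and 0.229 for Jund. Jund was also not called without wt/wt replicate 1 (0.068), and Ier2 was called only with all retinas or without ko/ko replicate 1, the adjusted p without each of the other 5 being 0.081 to 0.387, and not by DESeq2 (-0.72, adjusted p = 0.29), without a filter (-0.61, edgeR adjusted p = 0.15), with stricter cells (-0.69, 0.065) or without the cells richest in UMIs (-0.69, 0.078). Dusp1 (-0.73 ± 0.28, adjusted p = 0.094) and Jun (0.20 ± 0.26, adjusted p = 0.66) did not pass, and Jun was nearly level at 32.4 to 54.6 CPM in batch 2 and 46.5 and 56.2 CPM in batch 1. Fosb and Atf3 were too low to be tested.

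The batches also differed in which interneurons they held. Amacrine markers summed to 1493 to 1735 CPM of the interneurons of batch 1 and to 114 to 418 CPM of those of batch 2, with 0 of 7 markers at 0, and bipolar markers to 7112 to 8325 CPM and 10389 to 13261 CPM. Cells with more UMIs of the amacrine list than of the bipolar list made up 25.6% and 27.4% of interneurons in batch 1 and 1.88% to 7.47% in batch 2. The comparison was therefore repeated on the 1680 interneurons with more bipolar than amacrine UMIs (bipolar-list cells), a split chosen after the data were seen. Fos then stood at 83.3, 172, 221 and 195 CPM in batch 2 and at 11.3 and 14.5 CPM in batch 1, and Egr1 at 78.1, 240.3, 132 and 219 CPM in batch 2 and at 6.75 and 0 CPM in batch 1. Both differences were no smaller than before, -3.67 ± 0.34 for Fos (edgeR adjusted p = 2.9e-06) and -5.51 ± 0.60 for Egr1 (adjusted p = 2.0e-05). The batch 1 values of both lay under 22.6 CPM, the filter of the fit of all interneurons, and these smaller sums ask for more. Both genes thus passed the filter through batch 2 alone, and their p-values are a description. Junb (-2.07), Ier2 (-1.03) and Jund (-0.81) were called as well, and Btg2 was not (-0.48, adjusted p = 0.13). This fit called 381 genes in all, where that of all interneurons called 1050 of 8429 (12.5%). The number of genes tested in the bipolar-list fit is not given here. Its calls thus stand without a share over all genes and are a description. In absolute numbers, the 866 bipolar-list cells of batch 2 gave 227 UMIs of Fos in 167 cells and 239 of Egr1 in 153 cells, and the 814 of batch 1, with more UMIs in all, gave 22 of Fos in 20 cells and 6 of Egr1 in 6 cells. Mitochondrial share and depth moved with the batch too, and their part in the difference was not tested. The sources only number the batches, and the batch cannot be told apart from anything else in which these retinas differed.

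In the bipolar-list cells of batch 2, Fos and Egr1 were counted together in part of the cells. Of the 153 cells with Egr1, 38.6% had Fos, against 15.1% of the 713 without, at median depths of 1635 and 1570 UMIs. By retina the shares were 16.7% against 11.5%, 41.1% against 13.3%, 43.5% against 20.6% and 41.1% against 17.2%, higher in 4 of 4, with 18 to 56 cells with Egr1 behind each, and no test was run over cells.

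**Figure D3:**
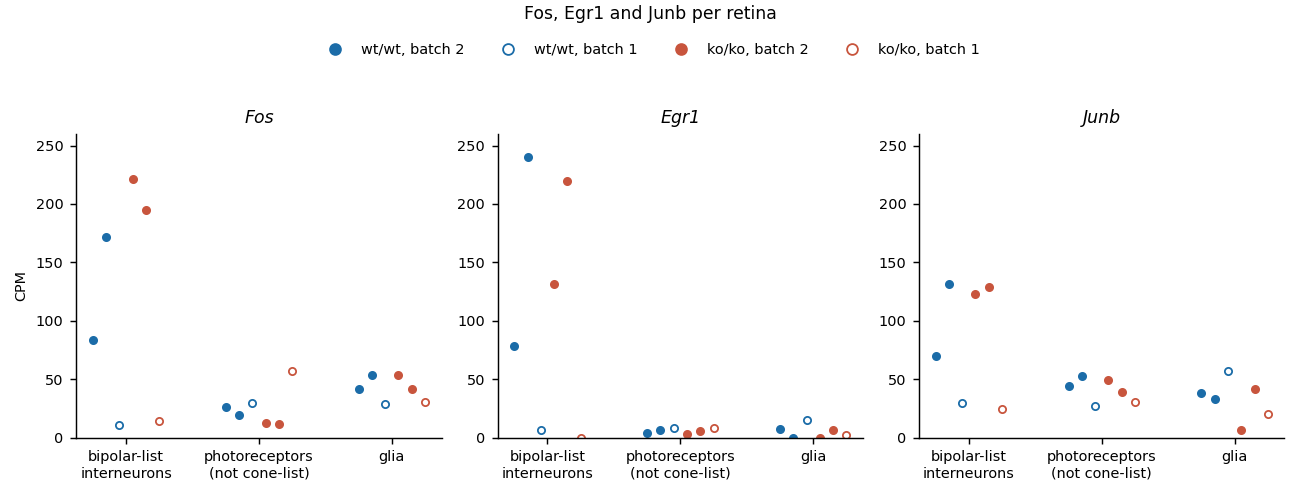
CPM of Fos, Egr1 and Junb in bipolar-list interneurons, in photoreceptors outside the cone list and in glia, 1 point per retina, blue for wt/wt, red for ko/ko, filled for batch 2 and open for batch 1. The open points of bipolar-list interneurons lie at 11.3 and 14.5 CPM for Fos, below the filled ones at 83.3 to 221 CPM, while in photoreceptors the open Fos points are at up to 56.8 CPM and are the highest.

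Photoreceptors followed the interneurons for some genes and not for others. Jund was called lower in batch 1, 57.8 and 60.1 CPM against 143 to 163 CPM (log2 -1.36 ± 0.14, edgeR adjusted p = 0.0049), and so was Atf3, 12.6 and 14.5 CPM against 22.1 to 28.8 CPM (-0.88 ± 0.19, adjusted p = 0.042). They were the 2 calls among 10 genes tested, beside 5.49% of 13749 genes. Without either batch 1 retina the adjusted p of Jund was 0.079 or 0.055, and Atf3 was called only with all retinas or without ko/ko replicate 1, and not by DESeq2 (-0.83, adjusted p = 0.10). Junb had 26.5 and 30.4 CPM against 39.6 to 50.4 CPM (-0.62 ± 0.18, edgeR adjusted p = 0.0809) and Btg2 187 and 189 CPM against 216 to 232 CPM (-0.20 ± 0.13, adjusted p = 0.36). The batches did not overlap for either gene, though neither passed the test with all retinas, and Junb was called without ko/ko replicate 1 (-0.55, adjusted p = 0.018). Jun did not overlap either, with 57.0 and 58.0 CPM against 72.7 to 90.3 CPM (-0.43 ± 0.15, edgeR adjusted p = 0.13), and was called without ko/ko replicate 1 (-0.37, adjusted p = 0.042). Ier2 (59.2 and 65.9 against 61.0 to 87.1 CPM) and Egr1 (8.56 and 12.0 against 4.15 to 9.41 CPM) overlapped between batches and did not pass. Fos had the opposite sign to interneurons, 28.2 and 54.1 CPM against 12.3 to 25.3 CPM (1.31 ± 0.36, adjusted p = 0.070). It was called by DESeq2 (1.37, adjusted p = 0.010), without a filter on low counts (1.32, edgeR adjusted p = 1.3e-06), with batch as the only term (1.29, adjusted p = 0.039), without wt/wt replicate 3 (2.14) and without ko/ko replicate 1 (1.17), and its value fell to 0.36 without ko/ko replicate 3. The 248 UMIs of Fos in that retina's photoreceptors outside the cone list were spread over 215 cells. Dusp1 also stood higher in batch 1 (18.7 and 22.2 against 8.36 to 15.9 CPM, 0.76 ± 0.26, adjusted p = 0.12), and was called without ko/ko replicate 1 (0.97, edgeR adjusted p = 0.0051) and without a filter on low counts (0.78, adjusted p = 0.042). With single retinas left out, the fits of photoreceptors called 20 to 4437 genes, in place of 755 with all retinas. Calls that members gained in such a fit are therefore no evidence by themselves.

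In glia, Jund was the 1 call of 6 tested (background 5.53% of 4790 genes), at 124 and 188 CPM in batch 1 and 351 to 455 CPM in batch 2 (-1.63 ± 0.23, edgeR adjusted p = 0.00016), and it stayed called when any single retina was left out. Fos (-0.85 ± 0.47, adjusted p = 0.30) and Dusp1 (-1.23 ± 0.40, adjusted p = 0.081) did not pass, though the batches did not overlap for either gene, and Dusp1 was called by limma-voom (-1.27, adjusted p = 0.045). Both genes are among the 6 tested, yet reached the filter of this fit (48.6 CPM) only in batch 2, where they were higher. Their p-values are therefore a description. None of 9 tested was called in mesenchymal cells, where 3.37% of 2109 genes were. Fosb (1.14 ± 0.52, adjusted p = 0.26) and Egr1 (1.01 ± 0.58, adjusted p = 0.39) had the largest values there, and 1 of the 9 had an unadjusted p under 0.05. Without microglia-list cells, Fos came to 1.27 ± 0.43 (edgeR adjusted p = 0.097) and Btg2 to -1.26 ± 0.45 (adjusted p = 0.12), neither called. Jund was thus called lower in batch 1 in 3 of 4 types. Btg2, called in interneurons, overlapped between batches in glia (60.9 and 113 against 60.3 to 111 CPM, -0.33 ± 0.29) and in mesenchymal cells (295 and 607 against 576 to 626 CPM, -0.49 ± 0.31), where its log2 value was -1.04 without wt/wt replicate 3 and 0.04 without ko/ko replicate 3.

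**Figure D4:**
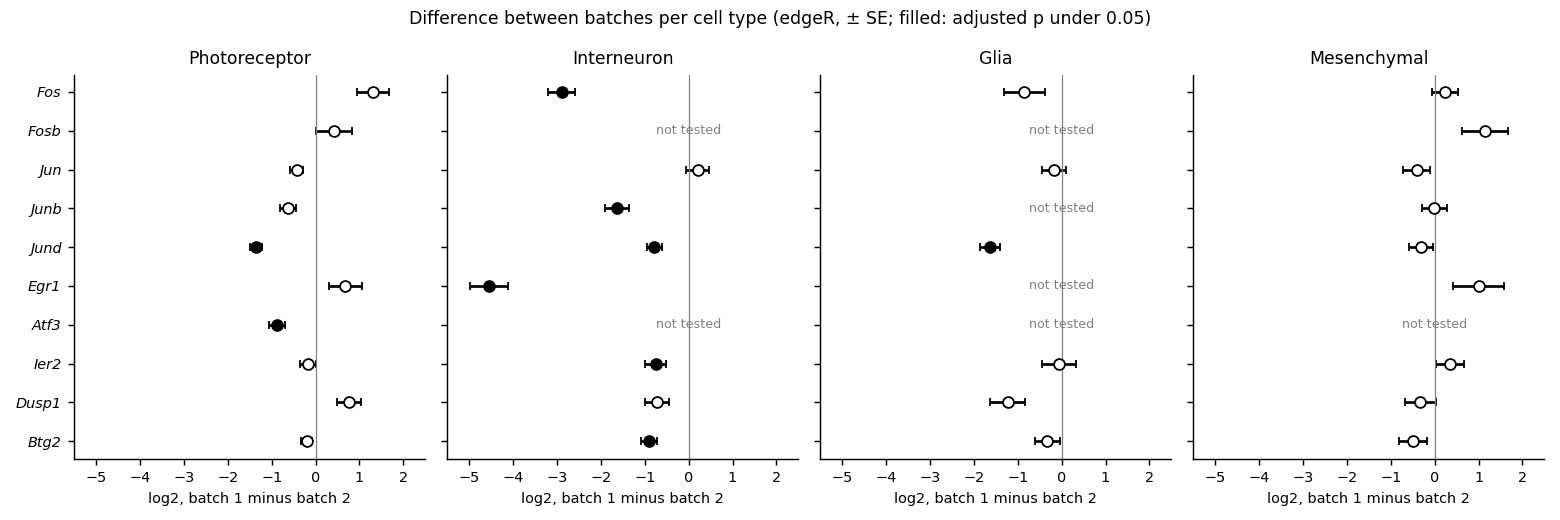
Log2 difference of batch 1 minus batch 2 with its SE for the 10 genes in 4 cell types, from edgeR fits of each type with genotype in the model, filled where the adjusted p is under 0.05. Fos and Egr1 reach -2.89 and -4.54 in interneurons and lie to the right of 0 in photoreceptors and mesenchymal cells, while Jund lies to the left in all 4 panels, filled in 3 of them.

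Whether a type's batch difference was unlike that of photoreceptors was tested in 1 fit over all sums. In interneurons 6 of 9 genes tested differed from photoreceptors in this respect (background 3.0% of 9078 genes), namely Egr1 (log2 -5.14 ± 0.41), Fos (-4.12 ± 0.26), Dusp1 (-1.50 ± 0.33), Junb (-0.96 ± 0.25), Btg2 (-0.63 ± 0.17) and, with the opposite sign, Jund (0.65 ± 0.17). Jund fell in both types, but by less in interneurons. Fos and Egr1 kept the call in limma-voom and without any single retina, and the other 4 were not called in limma-voom. Dusp1 lost it without ko/ko replicate 3 (-0.996, edgeR adjusted p = 0.41), Junb without ko/ko replicate 3 (-0.47), wt/wt replicate 2 (-0.81) or ko/ko replicate 2 (-0.76), Jund without either batch 1 retina, and Btg2 without any retina but wt/wt replicate 1 or ko/ko replicate 2. Without a filter Junb (-0.91) and Btg2 (-0.57) were not called, Btg2 also not with RLE factors (-0.50) or without the cells richest in UMIs (-0.47), and with RLE factors Jun was called too (0.88, edgeR adjusted p = 0.044). In glia 2 of 9 differed (background 1.01%), Fos (-2.10 ± 0.44) and Dusp1 (-2.002 ± 0.42), and in mesenchymal cells 3 of 9 (background 0.738%), Fos (-1.04 ± 0.25), Dusp1 (-1.18 ± 0.32) and Jund (1.02 ± 0.20). Those in glia rest on ko/ko replicate 3, without which Fos came to -1.26 (adjusted p = 0.62) and Dusp1 to -1.22 (adjusted p = 0.63), and so do 2 of those in mesenchymal cells, where Fos came to 0.17 and Dusp1 to -0.23 without it. Fos in glia was also not called without ko/ko replicate 1 (adjusted p = 0.051). In mesenchymal cells Fos was not called without ko/ko replicate 1 or 2 (-0.80 and -0.78), Dusp1 without either of these or wt/wt replicate 2 (-1.26 to -1.02), and Jund without wt/wt replicate 3 (0.95, adjusted p = 0.17). With RLE factors neither Fos (-0.85) nor Dusp1 (-0.999) was called there, nor Dusp1 with library totals (-1.06) or without the cells richest in UMIs (-1.21). None of these 5 was called in limma-voom.

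Cones and rods were looked at apart within photoreceptors, by whether a cell held more UMIs of a cone list than of a rod list, a split also chosen after the data were seen. The 861 cone-list cells had Btg2 at 449 ± 57.4 CPM against 189 ± 25.4 CPM in the other 41498 photoreceptors, higher in 6 of 6 retinas and 2.37-fold in the means. Egr1 stood at 25.5 against 6.04 CPM, higher in 6 of 6 retinas and 4.22-fold. Cone-list cells gave 21 UMIs of it in 11 cells of batch 1 and 24 in 19 cells of batch 2. Atf3 was lower in 6 of 6 retinas, 4.81 against 22.9 CPM, though cone-list cells gave only 7 UMIs of it. Ier2 (37.4 against 71.3 CPM) and Dusp1 (7.31 against 15.8 CPM) were lower in 6 of 6 retinas as well, Dusp1 on 3 UMIs of cone-list cells in batch 1 and 8 in batch 2. Among interneurons, Btg2 was 4.75-fold higher in bipolar-list than in amacrine-list cells, 261 against 54.9 CPM, in 6 of 6 retinas. The amacrine-list cells of batch 2 numbered 54 in all, 3 to 19 per retina, and gave 10 UMIs of Btg2. Nothing was tested here, since the same counts drew the lines between the cells.

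None of the 10 genes was called between genotypes. In photoreceptors, where all 10 were tested, log2 differences of ko/ko minus wt/wt ran from -0.32 (Egr1) to 0.19 (Fos), and the 95% interval of Jun was -0.53 to 0.46. Interneurons gave -0.24 (Ier2) to 0.39 (Fos) over 8 genes, and the batch made that comparison wide, with an interval of -1.47 to 2.26 for Fos and -2.45 to 2.56 for Egr1. In glia 5 genes ran from -0.65 (Btg2) to 0.44 (Dusp1), and in mesenchymal cells 8 genes ran from -0.34 (Junb) to 0.68 (Dusp1), with an interval of -0.13 to 1.48 for the latter. Beside these stands the share of microglia-list cells, 35.1% to 53.8% in wt/wt and 19.4% to 36.0% in ko/ko retinas. Without those cells the value of Junb turned to 0.39 and that of Btg2 from -0.33 to 0.63, neither called in edgeR. No member had an unadjusted p under 0.05 in any type. These values come from genotype as the only term. The background was 0.0% in photoreceptors, 0.0% in interneurons, 0.0% in glia and 0.0% in mesenchymal cells, from 13053, 7698, 4130 and 1717 genes tested in edgeR, where 109, 86, 51 and 150 genes had an unadjusted p under 0.05 and 0 were called by limma-voom or DESeq2. With batch as a covariate the intervals in interneurons narrowed, to -0.29 to 0.87 for Fos and -0.65 to 0.64 for Egr1, and again no member was called in any type. Btg2 in glia (-0.65, interval -1.26 to -0.05) then had an unadjusted p of 0.035 in edgeR, with an adjusted p of 0.9997, and Egr1 in mesenchymal cells, tested only in this fit, came to -1.16 (interval -2.38 to 0.05, edgeR adjusted p = 0.42). In that fit 31 of 2109 genes were called in mesenchymal cells (1.47%), 30 of them lower in ko/ko retinas and none of them among the 10, in place of 0, and the part of the microglia-list share in these calls was not tested. Several of these intervals leave room for differences of 2-fold, so the absence of a call does not show equal levels.

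How many cells carried at least 1 UMI of any of the 10 genes was compared after thinning each cell to 500 UMIs, because photoreceptors are shallower than the other types. The share was 72.8% ± 11.2 (SD, n = 6) in mesenchymal cells, 34.8% ± 10.1 in interneurons, 29.4% ± 5.84 in glia, 24.3% ± 3.61 in photoreceptors and 10.5% ± 8.24 in RPE cells. Thinning left out 25689 photoreceptors, 84 interneurons, 87 glia, 26 mesenchymal and 24 RPE cells. Without thinning the shares were 83.6%, 71.0%, 57.4%, 22.5% and 19.99% in the same order, so the gap between interneurons and photoreceptors was wider before depth was matched. After thinning, interneurons, glia and photoreceptors overlapped.

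Genes of the same pathway were read from 4 further lists. Of 36 other immediate early genes, 21 passed the filter of the fit over all types, 11 of them through mesenchymal sums only, and of the remaining 10 in mesenchymal cells against photoreceptors 8 were called higher and 2 lower (background 31.8% higher). Of those with the smallest p, Zfp36l1 (7.03), an RNA-binding protein, and Ier5 (6.51) were among the 10. Klf2 (8.35), a shear-responsive factor of endothelium, and Rhob (5.84) were among the 11, so their values are a description. Between batches the same list did not move as a group in interneurons, with 1 of 12 tested higher and 1 lower (background 12.5% called). Nr4a1, a nuclear receptor induced by activity, stood at 35.6, 50.5, 65.1 and 60.4 CPM in batch 2 and at 17.8 and 16.8 CPM in batch 1 (log2 -1.62 ± 0.31, edgeR adjusted p = 0.0017). Ier5 ran the other way, 14.2, 40.9, 8.14 and 19.4 CPM against 84.6 and 106 CPM (2.07 ± 0.32, adjusted p = 0.00024). Both batch 1 values of Nr4a1 lay under the filter of this fit (22.6 CPM), which it passed through batch 2 alone. Ier5 reached it in batch 2 at 40.9 CPM only. The p-values of these 2 genes are therefore a description. Among photoreceptors 0 of 20 were called, in glia 1 of 8 (Nfkbia, -1.27) and in mesenchymal cells 1 of 17 (Cebpb, -1.46). Nfkbia reached 50.6 CPM in 4 glia sums, and may have passed the filter of the glia fit (48.6 CPM) through batch 2 alone. Its call is given as a description.

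Feedback inhibitors of the MAP kinase pathway were read next. In interneurons 3 of 5 tested were lower in batch 1, beside 7.65% of all genes, Spry2 (-1.26 ± 0.23), Dusp4 (-1.18 ± 0.37) and Dusp5 (-1.15 ± 0.23), and Spry2 went from 104 to 149 CPM in batch 2 to 46.2 and 64.0 CPM in batch 1 without overlap. Glia had 2 of 3 lower beside 4.09% of all genes (Dusp6, -1.24, and Spry2, -1.04), photoreceptors 0 of 5 and mesenchymal cells 0 of 1. Of the kinases and factors upstream of the immediate early genes, 0 of 16 in photoreceptors, 0 of 11 in interneurons, 0 of 5 in glia and 0 of 2 in mesenchymal cells were called between batches. Heat shock genes and chaperones, the other family known for its answer to dissociation, were lower in batch 1 for 5 of 11 in interneurons beside the 7.65% of all genes (among them Hspd1, -1.28, Ubb, -1.10, Hspa8, -1.07 and Hsp90aa1, -0.85), for 3 of 9 in glia beside 4.09% (Hspd1, -1.98, Hspa8, -1.25 and Ubb, -0.87) and for 2 of 13 in photoreceptors beside 3.11% (Hspd1, -1.33, and Hspa8, -1.003). Hspa1b was higher in photoreceptors (1.48) and Hspb1 in mesenchymal cells (1.24). In glia, Hspd1 reached 50.6 CPM in 2 sums and Dusp6 in 4, beside a filter of 48.6 CPM in that fit. Both may have passed it through batch 2 alone, so they add no support to the glia counts. In the fit of batch by cell type, the batch difference of interneurons was unlike that of photoreceptors for Dusp5 (-1.73, 1 of 7 feedback inhibitors tested). The same held for Dnaja1 (0.63, 1 of 12 heat shock genes and chaperones), beside 3.0% of 9078 genes. No other gene of these lists was called there. Genotype gave 0 calls in each list and type here. The paper, with its own fit, lists genes that differed between genotypes in interneurons, mesenchymal cells and RPE cells. Klf2 is among those it gives as higher in ko/ko mesenchymal cells.

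The genes whose pattern was most like the mean of the 10 over the 18 sums of photoreceptors, interneurons and glia were Hnrnph2 (Pearson r = 0.91), Kdm6b (0.86), Gm15459 (0.85), Ccdc136 (0.85) and Gm5898 (0.84), among 11493 genes compared. After both were centred within cell type, they were Hnrnph2 (0.88), Ccdc136 (0.86), Vipr2 (0.86), Ppp1cc (0.84) and Gm12582 (0.84). The 18 sums share 6 libraries and 2 batches, so these values are a description.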

How the data were processed

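The authors aligned 10x 3′ reads to mm10 (GRCm38) with Cell Ranger 3.1.0, exons only, and deposited raw UMI counts per gene and cell, not normalized, with a table of retina, genotype, batch and cell type (Louvain clusters made in Seurat after LogNormalize and CCA over the batch). Cell types were used as deposited, and 629 cells with none were left out of the comparisons. Doublets were not called.

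For each retina and cell type the counts were added up and tested in edgeR 4.0.16 (glmQLFit, TMM, filterByExpr, Benjamini-Hochberg over all genes tested, threshold 0.05) under R 4.3.3. Intervals use the t quantile at the total degrees of freedom of edgeR's fit. Genotype was fitted alone (batch as a covariate being an alternative), batch with genotype, cell type with the retina as a block, and batch by cell type in the same frame. Alternatives were limma-voom 3.58.1, DESeq2 1.42.0, other scalings, filters, covariates and cells, and each retina left out. Scripts were tested on simulated data. CPM are UMIs scaled to 1000000 UMIs of a sum, without TMM factors, and no levels are compared between genes. Per other list, up to 4 genes with the smallest p per comparison are named, and the 5 genes most like the 10 by Pearson r of log2(CPM + 10). The cone, bipolar and amacrine splits, and the fits without microglia-list cells, were chosen after seeing the data. The members and lists were chosen with earlier results of these data known. Gene names and positions come from GENCODE M21 (52489 of 52636 genes), promoter sequences from RefSeq on GRCm38.p6. Of the 10 genes, 8 matched by symbol.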

Additional observations from a re-analysis of the deposited data

Results flagged for a closer look

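The batch difference was unlike that of photoreceptors in edgeR for 11 combinations of gene and type. In interneurons these were Egr1 (log2 -5.14), Fos (-4.12), Dusp1 (-1.50), Junb (-0.96), Btg2 (-0.63) and Jund (0.65). In glia they were Fos (-2.10) and Dusp1 (-2.002), and in mesenchymal cells Dusp1 (-1.18), Fos (-1.04) and Jund (1.02). The difference between the types was tested itself, as an interaction of batch and cell type, and the batch is carried by 2 retinas against 4. Of all 9078 genes, 3.0% were called in interneurons, 1.01% in glia and 0.738% in mesenchymal cells. Only Egr1 and Fos in interneurons were also called by limma-voom. Fos and Dusp1 in glia and in mesenchymal cells rest on ko/ko replicate 3.

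Cells without a deposited type, 629 in all, held 183 UMIs of the 10 genes, which come to 344 to 742 CPM of their sums per retina. They entered no comparison, and no control for them exists.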

How the results depend on the processing

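Retinas of batch 1 number 2, so leaving one out leaves a lone sample assumed to vary like the others, and the mesenchymal sums rest on 31 to 50 cells. Over all alternatives other than leaving out a retina, 563 log2 values of the 10 genes kept direction and side of the threshold, 31 lost their call, 6 gained one, 18 changed sign with neither value called, and 1 reversed, Btg2 in interneurons against photoreceptors (0.081 with library totals). Library totals moved the median of all genes by 0.24 in glia and 0.27 in mesenchymal cells.

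Deviations of same-numbered retinas correlated at -0.067, 0.54 and 0.52 in photoreceptors and at 0.105, 0.34 and 0.58 in interneurons, with a lowest value of -0.074 in glia and 0.093 in mesenchymal cells, so the pairs were all over 0.1 only in interneurons. There wt/wt replicate 1 correlated more with ko/ko replicate 2 (0.33) than with its own number. The block changed no call of the 10 genes between genotypes. With a replicate block the count of genes called between genotypes was 0 in photoreceptors, interneurons and glia and 32 in mesenchymal cells, and with batch as a covariate it was 31 there, none of them a member. Without a filter on low counts it was 1 in photoreceptors, 1 in interneurons and 28 in mesenchymal cells.

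For batch, genes called numbered 2295 in photoreceptors without a filter (4 members) and 1143 with batch as the only term, 437 in interneurons by DESeq2 and 381 in bipolar-list cells, and 55 in glia by DESeq2, where limma-voom called 2 members. In mesenchymal cells they numbered 44 by limma-voom, 22 by DESeq2, 18 with batch only, 42 without the cells richest in UMIs and 45 without microglia-list cells. Between types, no filter gave 10231 (interneurons), 9979 (glia) and 8853 (mesenchymal cells), and no retina block 3249 (interneurons). For batch by type, limma-voom gave 125 genes and 2 members in interneurons, 13 and 0 in glia and 40 and 0 in mesenchymal cells, no filter 140 in interneurons and 28 in glia, RLE factors 38 in glia and 35 with 1 member in mesenchymal cells, and library totals 43 in glia.

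With single retinas left out, genes called ranged over 0 to 7 for genotype in mesenchymal cells. For batch they ranged over 20 to 4437 (members 0 to 6) for photoreceptors, 364 to 2359 (3 to 6) for interneurons, 32 to 1068 for glia and 24 to 88 for mesenchymal cells. For batch by type they ranged over 49 to 217 (2 to 6) for interneurons, 10 to 52 (0 to 2) for glia and 27 to 54 (1 to 3) for mesenchymal cells, where Fos ran from -2.27 to 0.17. The cause of these shifts was not tested.

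Summed CPM of the members in photoreceptors was 690.2 with Malat1 and mitochondrial genes left out of the total. Shares of cells with a member were 45.9%, 56.3%, 48.3% and 88.1% in photoreceptors, interneurons, glia and mesenchymal cells thinned to 1000 UMIs, and 71.0%, 57.4% and 19.99% in interneurons, glia and RPE cells without thinning. Thinning to 1000 UMIs kept 2775 of 42359 photoreceptors, 1829 of 2083 interneurons, 770 of 942 glia and 184 of 246 mesenchymal cells. The photoreceptor share at that depth thus describes only the deepest cells of the type.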
